A study of Homo sapiens with 12 samples.

Results

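The genes described here encode the machinery that degrades RNA in human cells: the exosome, the enzymes that shorten poly(A) tails, the decapping complex, the exonucleases that follow decapping, and the factors of nonsense-mediated decay. They were taken by symbol from a list of 39, and all 39 were found among the 25369 genes of the deposited normalized count table. All 39 also passed the filter on low values, which asked for a normalized count of at least 10 in at least 3 libraries and left 14627 genes for testing. The quantity measured is the amount of each gene's RNA, not of its protein.

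HEK293T cells, an easily transfected human embryonic kidney line (the growth conditions and design text write HEK293), received a plasmid for one of a pair of constructs. Control cells expressed the Halo tag alone, a protein tag that binds covalently to a chloroalkane resin, and TNIP2 cells expressed Halo-TNIP2 196-346, a fusion that carries residues 196 to 346 of TNIP2, itself an adaptor in NF-kB signalling. From each extract, total RNA was taken before (Input) and after (Pulldown) purification through the tag, and ribosomal RNA was depleted. This gave 4 groups of 3 libraries each: Control Input, Control Pulldown, TNIP2 Input and TNIP2 Pulldown, the comparison of interest being which RNA came along with the TNIP2 fragment. All groups thus came from transfected cells with a Halo protein present; the plasmids' promoter is not stated in the labels. The labels do not say whether libraries of a group stem from separate transfections. The p-values therefore cover only library-to-library spread, possibly technical.

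Messenger RNA decay usually starts with shortening of the poly(A) tail, by PAN2-PAN3 and by the CCR4-NOT complex. The message is then either decapped by DCP2 and digested from its capped end by XRN1, or digested from its tail end by the exosome, a barrel of 9 core subunits that works with separate nucleases. Nonsense-mediated decay is a surveillance route in which UPF and SMG proteins direct messages with premature stop codons to the same enzymes.

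Recovered depth ran from 3591073 to 6404575 reads in Control Pulldown and from 8898166 to 29526261 in the other 3 groups, and no gene of the list had fewer than 25 reads in any library. The TNIP2 gene, the check of the labels, had normalized counts of 272 to 304 in Control Input and 1472, 309 and 391 in Control Pulldown. It had 13318 to 46568 in the TNIP2 Input group and 51905 to 193013 in TNIP2 Pulldown. Control Pulldown 1 was thus well above the other Control libraries, for a reason that was not tested. These counts do not separate RNA of the construct from the cell's own TNIP2 RNA. Blood markers were low, with a summed normalized count of 29 to 69: 2 of 7 were at 0 in every library and 2 averaged 10 or more. Fibroblast and endothelial markers summed to 59 to 146: 0 of 7 were at 0 in every library and 2 averaged 10 or more. Of the genes typical of HEK293 cells, 7 of 9 averaged 10 or more. The summed count of that last list was 8365 to 9830 in the other 9 libraries and 12656 to 13418 in TNIP2 Pulldown. Its genes did not rise together. Over TNIP2 Input, limma called 2 of the 8 tested higher and 1 lower, beside 29.8% and 28.3% of all genes, with a median log2 of -0.17. NEFL had a mean of 791 in TNIP2 Input and 4606 in TNIP2 Pulldown, whereas LIN28B went from 1970 to 1095. The part of this list in the results was not tested. Both TNIP2 libraries numbered 3 stood apart from the other two of their groups: TNIP2 Input 3 lay more than 1.5 times above or below both others for 25.4% of all tested genes and TNIP2 Pulldown 3 for 26.0%. For the decay genes the shares were 17.9% (7 of 39) and 28.2% (11 of 39). Values are therefore also given without both. Counting did not necessarily separate overlapping genes, since the labels state no strand setting: in RefSeq (GRCh38), 9 of the 39 genes overlap a protein-coding gene, among them EXOSC9 with CCNA2, DIS3 with BORA, CNOT3 with LENG1, DCP1B with CACNA1C, DCP2 with MCC and SMG5 with TMEM79. SMG1 has near-identical pseudogene copies. The values of these genes are uncertain to that extent.

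Before any purification, the 39 genes covered a wide range of levels. Per length, in FPKM of Control Input, EXOSC9 was highest at 88.1 ± 11.3 (SD, n = 3), followed by EXOSC8 at 73.5 ± 4.88 and SMG5 at 67.9 ± 5.74. The ranges of 1 SD around the mean overlapped for EXOSC9 and EXOSC8, and for EXOSC8 and SMG5. Differences between genes in the same libraries were not tested. CNOT4 was lowest at 3.55 ± 0.345, next to DIS3L2 at 4.15 ± 0.207, EDC3 at 4.40 ± 0.905 and CNOT3 at 4.46 ± 1.39. EXOSC3 and EXOSC5, the latter at 32.1 ± 1.46, were the lowest of the 9 exosome core genes. The nucleases of the exosome ran from DIS3L at 15.7 ± 0.710 to EXOSC10 at 39.7 ± 2.79. DIS3L2, at 4.15, encodes a related nuclease that acts apart from the exosome.

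The RNA of the decay machinery did not come through the TNIP2 purification as a block. In TNIP2 Pulldown against TNIP2 Input, 15 of the 39 genes were higher, 12 were lower and 12 were not called (limma with Benjamini-Hochberg adjustment over all 14627 genes, adjusted p under 0.05). Called genes made up 69.2% of the list, beside 58.1% of all genes tested; 29.8% of all genes were called higher and 28.3% lower. The median log2 fold change was 0.18 for the decay genes and 0.01 for all genes. At least 2-fold differences were called for 8 genes upward and 5 downward, beside 18.8% and 16.8% of all genes. Libraries of the groups did not overlap for 14 genes upward and 11 downward, beside 29.4% and 28.1% of all genes (57.5% in either direction). The extremes were EXOSC6 at 1.79 and LSM1 at -2.05 on the log2 scale. Without both TNIP2 libraries numbered 3, 17 genes were higher and 14 lower, and none of the 27 calls was lost. Values are shares of each library, so a gene's enrichment is relative to the other RNAs in the same fraction, and in bulk extracts fewer transfected cells and less RNA per cell cannot be told apart. The deposited scaling sets the zero of these differences: with each library centred on 80 cytosolic ribosomal protein genes, the median of all genes moved to -0.47, the calls over all genes changed from 4358 higher and 4145 lower to 2437 higher and 6033 lower, and 7 decay genes were called higher and 14 lower. The median of the decay genes was then -0.29. The ribosomal protein genes were not level themselves. Their median, as a log2 difference from its mean over all libraries, was 0.50, 0.41 and -0.14 in TNIP2 Pulldown. In TNIP2 Input it was -0.09, -0.23 and -0.32, so the centring shifted libraries of a group unevenly. Which scaling is nearer to the true zero was not tested.

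**Figure D1:**
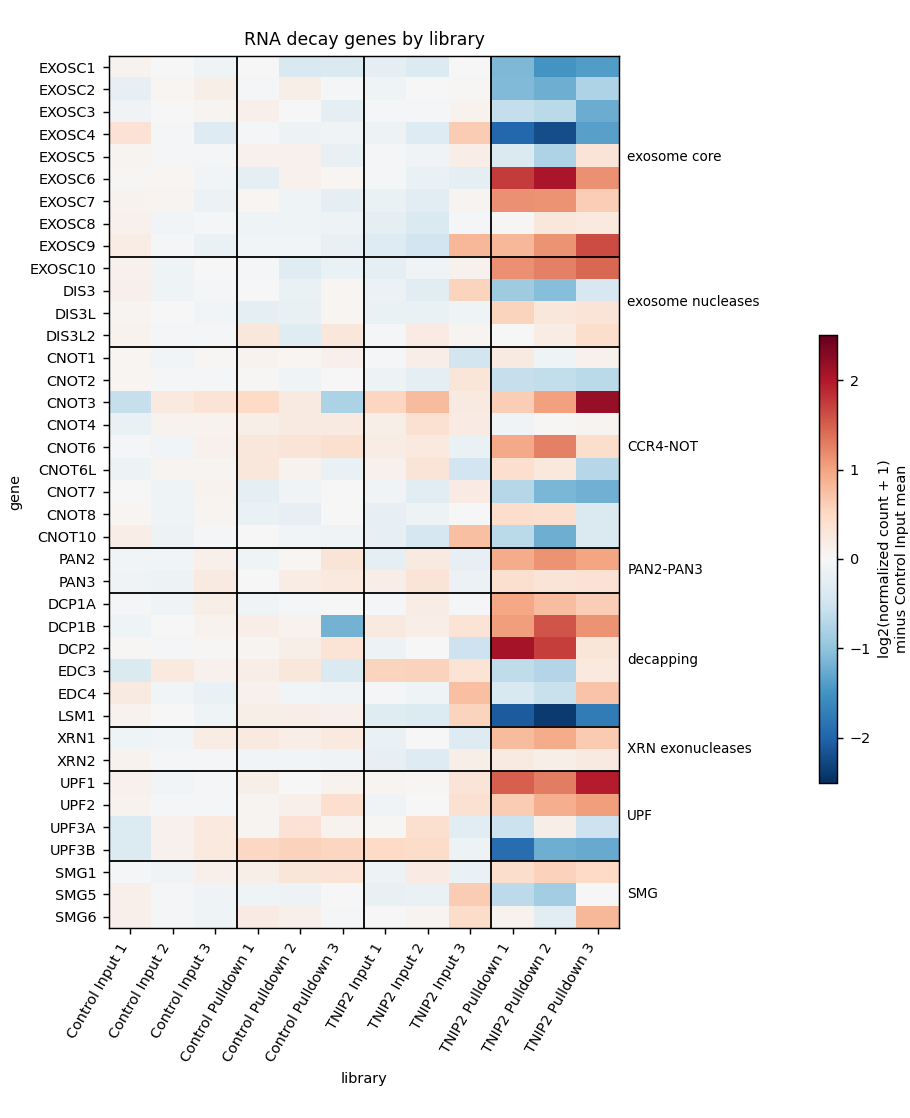
Heat map of log2(normalized count + 1) for the 39 genes (rows, grouped by role) in the 12 libraries (columns), each as the difference from the gene's mean in Control Input. The 9 libraries left of TNIP2 Pulldown are mostly pale, whereas the 3 TNIP2 Pulldown libraries hold both strong red rows such as EXOSC6 and UPF1 and strong blue rows such as LSM1 and EXOSC4.

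The exosome core split evenly. Of its 9 subunits, EXOSC6, EXOSC7, EXOSC8 and EXOSC9 were higher in TNIP2 Pulldown than in TNIP2 Input and EXOSC1, EXOSC2, EXOSC3 and EXOSC4 were lower, with EXOSC5 not called and a median of -0.28. EXOSC1, EXOSC2 and EXOSC3 encode the cap of the barrel, and all 3 were lower. The 6 genes of the ring, EXOSC4 to EXOSC9, went both ways. Over all genes tested, 29.8% were called higher and 28.3% lower, so calls in both directions are not particular to the exosome. Whether calls followed position in the barrel was not tested.

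EXOSC6, a ring subunit, had normalized counts of 2343, 2849 and 1546 in TNIP2 Pulldown against 672, 623 and 589 in TNIP2 Input, 584, 747 and 720 in Control Pulldown and 713, 716 and 661 in Control Input. Every TNIP2 Pulldown library was more than 2 times any of the other 9 libraries. Its log2 fold change over TNIP2 Input was 1.79 (SE 0.19, adjusted p = 2.3e-06), a 3.47-fold difference. EXOSC4, also a ring subunit, went the other way, with 89, 74 and 135 in TNIP2 Pulldown and 317, 277 and 538 in TNIP2 Input. Control Pulldown (341, 319 and 326) and Control Input (445, 340 and 279) lay in the same range as TNIP2 Input, and no TNIP2 Pulldown library overlapped them. EXOSC4 was 3.73-fold lower than in TNIP2 Input (log2 -1.90, SE 0.27, adjusted p = 2.4e-05). The cap subunit EXOSC1 stood at 242, 187 and 202 in TNIP2 Pulldown, below the 446, 420 and 525 of TNIP2 Input, the 533, 407 and 414 of Control Pulldown and the 567, 537 and 489 of Control Input. Here too the groups did not overlap, and the log2 fold change over TNIP2 Input was -1.14 (SE 0.17, adjusted p = 4.0e-05).

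The other cap subunits had log2 fold changes of -1.01 (EXOSC2) and -0.85 (EXOSC3). Among the other ring subunits EXOSC7 was at 1.09 and EXOSC9 at 1.18. EXOSC9 differed between libraries of a group: TNIP2 Input held 1310, 1180 and 2931, and TNIP2 Pulldown 2903, 3556 and 5101. The groups touched, because TNIP2 Input 3 exceeded TNIP2 Pulldown 1. Within the same library number, TNIP2 Pulldown over Input ratios for EXOSC9 were 2.22, 3.01 and 1.74. EXOSC9 lost its call under quantile normalization (0.65, adjusted p = 0.067) and after centring on ribosomal protein genes (0.71, adjusted p = 0.11). EXOSC8 had the smallest called difference of the exosome core, 0.39 (SE 0.14, adjusted p = 0.024). It lost its call without TNIP2 Input 1 (0.37, adjusted p = 0.075), TNIP2 Input 2 (0.32, adjusted p = 0.10) or TNIP2 Pulldown 2 (0.35, adjusted p = 0.065), and was at 0.12 (adjusted p = 0.46) under quantile normalization and -0.08 after centring on ribosomal protein genes. EXOSC5, at -0.28 and not called (adjusted p = 0.29), had a TNIP2 Pulldown 3 value of 453 above the 283 and 212 of the other two; without that library it was called at -0.58 (adjusted p = 0.009).

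The nucleases that join the exosome also differed among themselves. EXOSC10, the nuclear exonuclease, had 2811, 3015 and 3411 in TNIP2 Pulldown, against 1079, 1194 and 1360 in TNIP2 Input, 1217, 1027 and 1134 in Control Pulldown and 1358, 1180 and 1267 in Control Input. The 3 TNIP2 Pulldown values lay close together and far above all others. The difference from TNIP2 Input was 2.54-fold (log2 1.35, SE 0.14, adjusted p = 2.0e-06), and the same-number ratios were 2.60, 2.52 and 2.51. DIS3, the main catalytic subunit of the nuclear exosome, was at 1720, 1532 and 2415 in TNIP2 Pulldown, 2871, 2678 and 4674 in TNIP2 Input, 3196, 2866 and 3291 in Control Pulldown and 3509, 2982 and 3115 in Control Input. All TNIP2 Pulldown libraries were below all other libraries, although TNIP2 Input 3 and TNIP2 Pulldown 3 were each the highest of their group. DIS3 was 1.78-fold lower than in TNIP2 Input (log2 -0.83, SE 0.21, adjusted p = 0.0034). DIS3L, its cytoplasmic counterpart, had 1012, 834 and 860 in TNIP2 Pulldown, 613, 609 and 634 in TNIP2 Input, 579, 606 and 705 in Control Pulldown and 715, 689 and 654 in Control Input. These groups did not overlap, and DIS3L was higher by 0.54 (SE 0.14, adjusted p = 0.0042); after centring on ribosomal protein genes it was at 0.07 (adjusted p = 0.76). DIS3L2, which degrades uridylated RNA apart from the exosome, was at 0.14 with an adjusted p of 0.54.

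**Figure D2:**
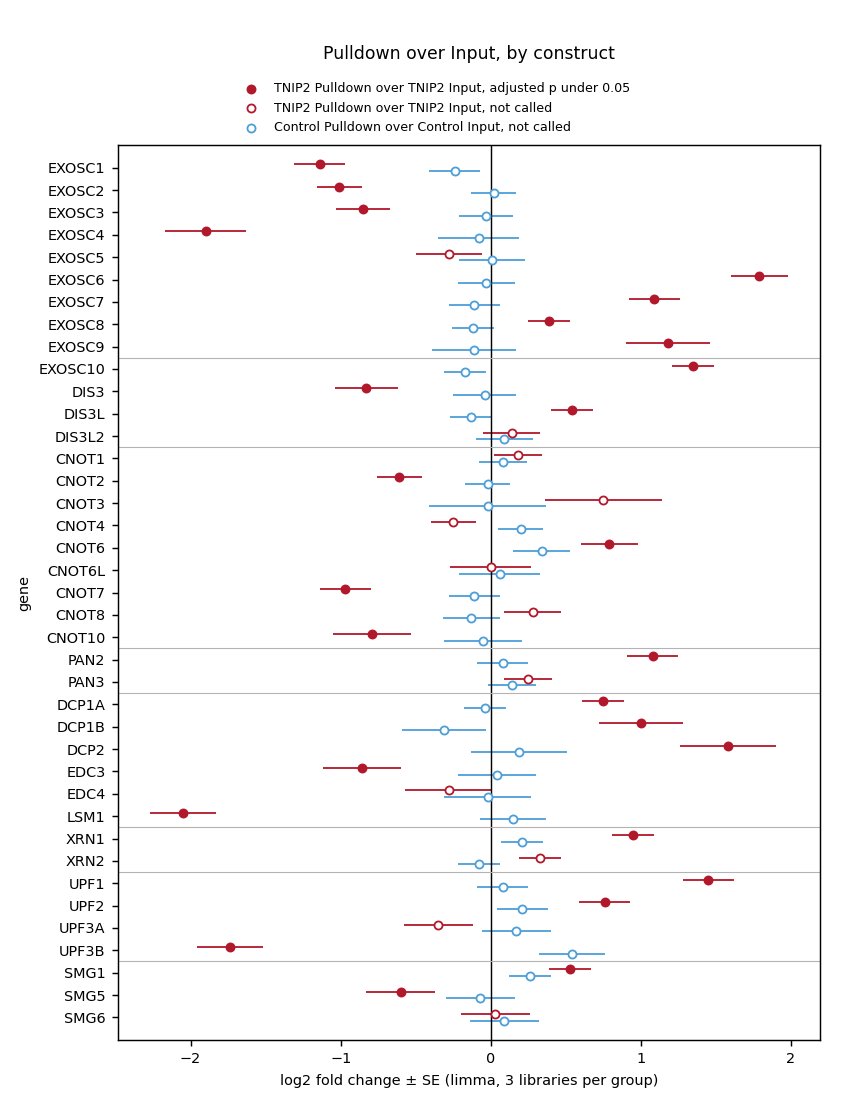
Log2 fold change of Pulldown over Input for each of the 39 genes, with bars of 1 SE from the limma fit (3 libraries per group). Filled red points are called for the TNIP2 fragment, open red points are not, and open blue points are the tag alone, for which no gene was called. The red points run from -2.05 (LSM1) to 1.79 (EXOSC6) and the blue points from -0.31 (DCP1B) to 0.54 (UPF3B).

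Among the 9 CCR4-NOT genes, 1 was higher in TNIP2 Pulldown than in TNIP2 Input, 3 were lower and 5 were not called. Over all genes, 29.8% were called higher and 28.3% lower. The median of the 9 CCR4-NOT genes was 0.00. None reached a 2-fold difference. CNOT7, one of the catalytic deadenylases, was lowest: 1214, 900 and 868 in TNIP2 Pulldown, against 1889, 1662 and 2295 in TNIP2 Input, 1684, 1883 and 1985 in Control Pulldown and 2017, 1860 and 2119 in Control Input. No library overlapped, and CNOT7 was 1.96-fold lower than in TNIP2 Input (log2 -0.97, SE 0.17, adjusted p = 1.5e-04). Its close paralog CNOT8 had 1051, 1028 and 601 in TNIP2 Pulldown, 674, 704 and 764 in TNIP2 Input, 693, 668 and 765 in Control Pulldown and 799, 716 and 809 in Control Input. TNIP2 Pulldown 3 was the lowest of all 12 libraries while the other two were the highest. CNOT8 was therefore not called (0.28, SE 0.19, adjusted p = 0.22), but without TNIP2 Pulldown 3 it was called at 0.54 (adjusted p = 0.0025).

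The other pair of deadenylases in the complex also differed. CNOT6 had 1938, 2394 and 1352 in TNIP2 Pulldown, 1145, 1184 and 893 in TNIP2 Input, 1220, 1251 and 1331 in Control Pulldown and 978, 958 and 1074 in Control Input. All 3 TNIP2 Pulldown libraries were above the rest, number 3 only just above the highest Control Pulldown value. The difference from TNIP2 Input was 0.79 (SE 0.19, adjusted p = 0.0023), and after centring on ribosomal protein genes 0.32 (adjusted p = 0.097). CNOT6L had 824, 737 and 374 in TNIP2 Pulldown and 664, 768 and 443 in TNIP2 Input, with 747, 654 and 548 in Control Pulldown and 565, 648 and 644 in Control Input. These overlapped throughout, and the difference was 0.00 (SE 0.27, adjusted p = 0.99).

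CNOT2, a structural subunit of the NOT module, was even within TNIP2 Pulldown (578, 559 and 538) and lower than in TNIP2 Input (785, 731 and 1068), Control Pulldown (873, 808 and 864) and Control Input (896, 843 and 843). No libraries overlapped, and the log2 fold change was -0.61 (SE 0.15, adjusted p = 0.0035). CNOT10, a further subunit, was at -0.79 (adjusted p = 0.018) and lost its call without TNIP2 Input 3 (-0.44, adjusted p = 0.087) or TNIP2 Pulldown 2 (-0.56, adjusted p = 0.097). TNIP2 Input 3 held 3229 normalized counts of CNOT10, against 1665 and 1423 in the other two. CNOT3, the partner of CNOT2, had 216, 288 and 639 in TNIP2 Pulldown and 206, 243 and 165 in TNIP2 Input. The high value of TNIP2 Pulldown 3 went with a wide error (0.75, SE 0.39, adjusted p = 0.11), and without TNIP2 Pulldown 1 CNOT3 was called at 1.08 (adjusted p = 0.04). The scaffold CNOT1 (0.18) and the ubiquitin ligase CNOT4 (-0.25) were not called. Under quantile normalization CNOT1 turned to -0.43 and was called (adjusted p = 0.044), and after centring on ribosomal protein genes CNOT4 was called at -0.72 (adjusted p = 0.01).

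In the PAN2-PAN3 complex, the catalytic subunit and its adaptor gave different values. PAN2, the deadenylase, had 1284, 1466 and 1341 in TNIP2 Pulldown, 579, 791 and 583 in TNIP2 Input, 624, 695 and 846 in Control Pulldown and 646, 649 and 738 in Control Input. The TNIP2 Pulldown libraries were all above every other library. PAN2 was 2.11-fold higher than in TNIP2 Input (log2 1.08, SE 0.17, adjusted p = 5.9e-05). PAN3 had 634, 602 and 619 in TNIP2 Pulldown, 537, 604 and 432 in TNIP2 Input, 478, 550 and 568 in Control Pulldown and 450, 442 and 560 in Control Input. TNIP2 Pulldown overlapped TNIP2 Input only through TNIP2 Input 2, and the difference was 0.25 (SE 0.16, adjusted p = 0.20).

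Decapping held the lowest value of the whole list and one of the highest. DCP2, the decapping enzyme, had 16410, 12936 and 4754 in TNIP2 Pulldown, 3567, 3909 and 2702 in TNIP2 Input, 4092, 4297 and 4920 in Control Pulldown and 3945, 3729 and 3961 in Control Input. TNIP2 Pulldown 1 and 2 were far above everything else, whereas TNIP2 Pulldown 3 was above both Input groups but below the highest Control Pulldown library. Over TNIP2 Input the difference was 2.99-fold (log2 1.58, SE 0.32, adjusted p = 7.1e-04), with same-number ratios of 4.60, 3.31 and 1.76. LSM1, a subunit of the cytoplasmic LSM ring that promotes decapping, had 137, 111 and 174 in TNIP2 Pulldown, 477, 464 and 855 in TNIP2 Input, 647, 659 and 641 in Control Pulldown and 625, 591 and 541 in Control Input. Its 3 TNIP2 Pulldown libraries were far below all others. LSM1 was 4.13-fold lower than in TNIP2 Input (log2 -2.05, SE 0.22, adjusted p = 2.4e-06), with same-number ratios of 0.289, 0.241 and 0.204.

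DCP1A and DCP1B, the paralogs that activate DCP2, were both higher. DCP1A had 1390, 1221 and 1093 in TNIP2 Pulldown, 693, 811 and 697 in TNIP2 Input, 670, 695 and 710 in Control Pulldown and 687, 665 and 787 in Control Input. DCP1B had 296, 430 and 314, then 168, 162 and 181, then 160, 152 and 63, then 134, 144 and 153 in the same order of groups. For both genes every TNIP2 Pulldown library was above every other library, and Control Pulldown 3 was low for DCP1B, where 1 read stands for 2.53 normalized counts. The differences from TNIP2 Input were 0.75 (SE 0.14, adjusted p = 4.4e-04) for DCP1A and 1.00 (SE 0.28, adjusted p = 0.0073) for DCP1B. Both lost their call when libraries were centred on ribosomal protein genes (0.28, adjusted p = 0.17, and 0.53, adjusted p = 0.17). The decapping enhancer EDC3 was lower (-0.86, adjusted p = 0.011), but not called without TNIP2 Pulldown 2 (-0.68, adjusted p = 0.054). EDC4, the scaffold of the decapping complex, was at -0.28 (adjusted p = 0.42), with 743, 652 and 1575 in TNIP2 Pulldown; without TNIP2 Pulldown 3 it was called at -0.68 (adjusted p = 0.017).

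**Figure D3:**
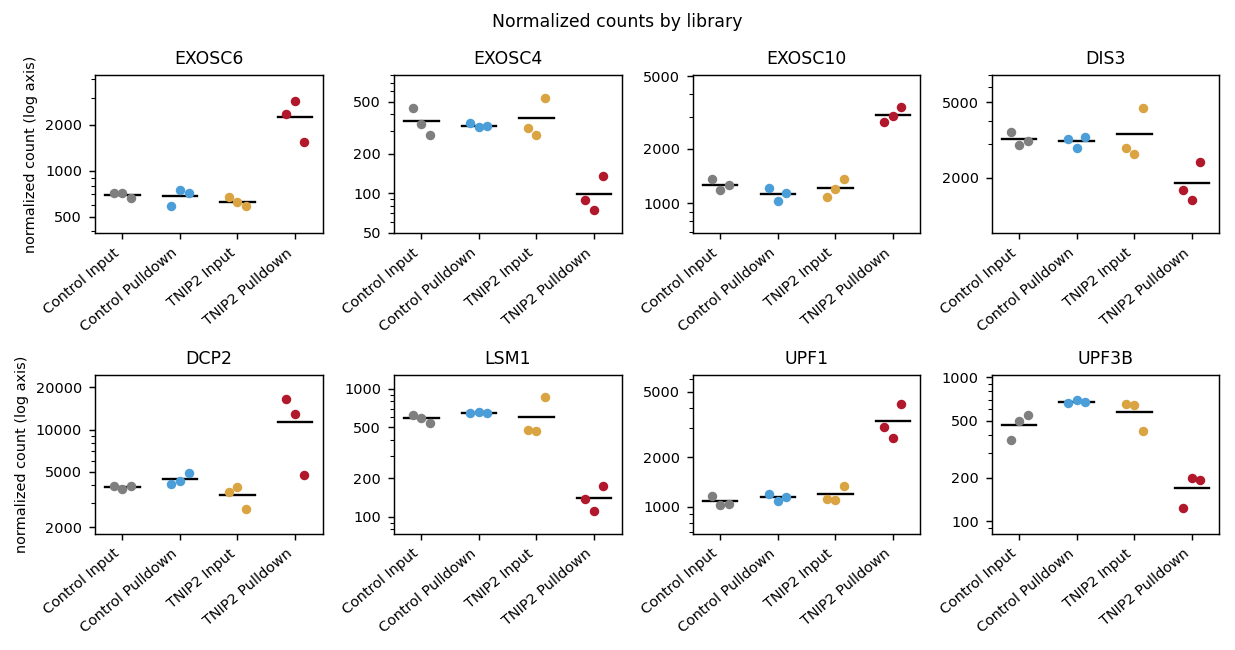
Normalized counts of 8 genes in each library (points, log axis) with the group mean (bar), 3 libraries per group. EXOSC6, EXOSC10 and UPF1 are above all other libraries in each TNIP2 Pulldown library, EXOSC4, DIS3, LSM1 and UPF3B are below them, and DCP2 has 1 TNIP2 Pulldown library, at 4754, within the range of Control Pulldown.

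Of the exonucleases that degrade decapped or cleaved RNA, XRN1 acts in the cytoplasm and XRN2 in the nucleus. XRN1 had 1663, 1833 and 1508 in TNIP2 Pulldown, 850, 963 and 771 in TNIP2 Input, 1117, 1073 and 1129 in Control Pulldown and 893, 909 and 1085 in Control Input. TNIP2 Pulldown did not overlap any other group, and the same-number ratios were 1.96, 1.90 and 1.95. XRN1 was 1.94-fold higher than in TNIP2 Input (log2 0.95, SE 0.14, adjusted p = 5.3e-05). XRN2 had 2455, 2300 and 2459 in TNIP2 Pulldown, 1802, 1675 and 2324 in TNIP2 Input, 2005, 1993 and 1955 in Control Pulldown and 2215, 2010 and 2054 in Control Input. TNIP2 Input 3 alone overlapped the TNIP2 Pulldown libraries, and XRN2 was not called (0.33, SE 0.14, adjusted p = 0.061). It was called with the library number as a block within each construct (0.33, adjusted p = 0.035) and without TNIP2 Input 3 (0.47, adjusted p = 0.0065).

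The UPF genes of nonsense-mediated decay held opposite extremes. UPF1, the central helicase, had 3045, 2620 and 4214 in TNIP2 Pulldown, 1121, 1101 and 1341 in TNIP2 Input, 1189, 1085 and 1139 in Control Pulldown and 1162, 1030 and 1039 in Control Input. All TNIP2 Pulldown libraries were high. UPF1 was 2.73-fold higher than in TNIP2 Input (log2 1.45, SE 0.17, adjusted p = 4.8e-06). UPF3B, which links UPF2 to the exon junction complex left by splicing, had 123, 199 and 192 in TNIP2 Pulldown, 651, 639 and 426 in TNIP2 Input, 659, 694 and 672 in Control Pulldown and 366, 496 and 544 in Control Input. Its TNIP2 Pulldown libraries were below all others. UPF3B was 3.34-fold lower than in TNIP2 Input (log2 -1.74, SE 0.22, adjusted p = 1.1e-05).

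UPF2, the bridge between UPF1 and UPF3B, had 1099, 1318 and 1459 in TNIP2 Pulldown, 668, 707 and 922 in TNIP2 Input, 745, 771 and 942 in Control Pulldown and 746, 679 and 694 in Control Input. TNIP2 Pulldown was above all other libraries, by 0.76 over TNIP2 Input (SE 0.17, adjusted p = 0.0012), or 0.29 (adjusted p = 0.33) after centring on ribosomal protein genes. UPF3A, the paralog of UPF3B, had 165, 266 and 167 in TNIP2 Pulldown, 245, 315 and 196 in TNIP2 Input, 252, 309 and 253 in Control Pulldown and 188, 258 and 282 in Control Input. These overlapped, and UPF3A was not called (-0.35, SE 0.23, adjusted p = 0.22). After centring on ribosomal protein genes it was called at -0.82 (adjusted p = 0.012).

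Of the 3 SMG genes 1 was called higher, 1 lower and 1 not at all, beside 29.8% of all genes higher and 28.3% lower. SMG1, the kinase that phosphorylates UPF1, had 1594, 1752 and 1653 in TNIP2 Pulldown, 1079, 1345 and 1048 in TNIP2 Input, 1303, 1447 and 1488 in Control Pulldown and 1139, 1106 and 1285 in Control Input. It was above all other libraries in TNIP2 Pulldown, with a difference from TNIP2 Input of 0.53 (SE 0.14, adjusted p = 0.0049) that became 0.19 (adjusted p = 0.29) under quantile normalization and 0.06 (adjusted p = 0.79) after centring on ribosomal protein genes. SMG5, an adaptor that binds phosphorylated UPF1, had 2222, 1930 and 3549 in TNIP2 Pulldown, 3103, 3134 and 5477 in TNIP2 Input, 3279, 3211 and 3561 in Control Pulldown and 3860, 3411 and 3296 in Control Input. The libraries numbered 3 were the highest of both TNIP2 groups, so that the groups overlapped. SMG5 was called lower (-0.60, SE 0.23, adjusted p = 0.039), but not without TNIP2 Input 3 (-0.33, adjusted p = 0.19), TNIP2 Pulldown 1 (-0.52, adjusted p = 0.11), TNIP2 Pulldown 2 (-0.42, adjusted p = 0.17), or any of Control Input 2, Control Input 3, Control Pulldown 1 and Control Pulldown 2 (adjusted p = 0.05 to 0.052). SMG6, the endonuclease of the pathway, had 501, 389 and 840 in TNIP2 Pulldown, 475, 497 and 653 in TNIP2 Input, 544, 516 and 455 in Control Pulldown and 519, 465 and 437 in Control Input. Its groups overlapped and the difference was 0.03 (SE 0.23, adjusted p = 0.92).

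The tag alone gave a different picture. In Control Pulldown against Control Input, 0 of the 39 decay genes were called by limma, beside 0.137% of all genes tested (20 lower, 0 higher). At an unadjusted p under 0.05 there was 1 gene, UPF3B (0.54, limma adjusted p = 1.00), whose Control Pulldown libraries (659, 694 and 672) were all above Control Input. That count is close to the share over all genes tested in the same fit, 342 of 14627. The spread in that fit came from all 12 libraries. Over all genes the number was 1019 in a fit on the Control groups alone and 992 without both TNIP2 libraries numbered 3. UPF3B was not called with the tag alone. Its libraries stood above Control Input there and below TNIP2 Input in the purification with the fragment. The log2 fold changes of the list ran from -0.31 (DCP1B) to 0.54, with a median of -0.02. DCP1B stood at 160, 152 and 63 in Control Pulldown, and its value ran from -0.55 to 0.12 over the alternatives. Libraries did not overlap for 7 genes upward and 2 downward, beside 5.83% and 7.15% of all genes (13.0% in either direction). Limma-voom on the recovered reads called 0 of the 39 as well.

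No decay gene was called between the Input groups. In TNIP2 Input against Control Input, 0 of 39 were called by limma, beside 0.00684% of all genes, which was TNIP2 alone. An unadjusted p under 0.05 was found for 0 of 39, beside 104 of 14627 genes tested. That fit took one estimate of spread per gene from all 12 libraries, both TNIP2 libraries numbered 3 included. Over all genes the number was 325 in a fit on these groups alone. Without both TNIP2 libraries numbered 3 it was 1391, so few small p-values in the main fit do not show equal Input groups. Voom on the recovered reads also called 0. Libraries did not overlap for 3 genes upward and 1 downward, beside 3.62% and 5.32% of all genes (8.94% in either direction). The values ran from -0.21 (EXOSC8 and DCP2) to 0.52 (CNOT3, SE 0.39), with a median of 0.01. A p that misses the threshold does not show equal levels, and the SE of single genes was 0.14 to 0.39.

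With the purified fractions set against each other, TNIP2 Pulldown against Control Pulldown, 14 of the 39 genes were higher and 10 lower. That is 61.5% of the list, beside 59.4% of all genes (30.6% higher and 28.7% lower), and the medians were 0.12 for the list and 0.03 for all genes. At least 2-fold differences were called for 8 genes upward and 5 downward, beside 19.8% and 17.2% of all genes. Libraries did not overlap for 17 genes upward and 11 downward, beside 31.5% and 29.5% (61.0% in either direction). This comparison shares the TNIP2 Pulldown libraries with the one above. LSM1 was at -2.22 (SE 0.22, adjusted p = 1.0e-06), 4.66-fold lower, UPF3B 4.01-fold lower (SE 0.22 in log2, adjusted p = 2.6e-06) and EXOSC4 at -1.76 (SE 0.27, adjusted p = 4.7e-05). EXOSC6 was at 1.68 (SE 0.19, adjusted p = 4.0e-06), DCP1B at 1.56 (SE 0.28, adjusted p = 2.6e-04), UPF1 2.84-fold higher (SE 0.17 in log2, adjusted p = 3.1e-06) and EXOSC10 at 1.45 (SE 0.14, adjusted p = 9.3e-07). Control Pulldown 3 was low for DCP1B, at 63, and the DCP1B value ran from 1.13 to 1.79 over the alternatives. The list thus again held strong values in both directions, and the exosome core again split, with 3 higher, 4 lower and 2 not called.

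A few genes differed in call between these comparisons, for which no difference was tested. EXOSC8 (0.30, adjusted p = 0.074), SMG1 (0.24, adjusted p = 0.16), EDC3 (-0.40, adjusted p = 0.19) and SMG5 (-0.43, adjusted p = 0.13) were called over TNIP2 Input but not over Control Pulldown. CNOT3 was called only over Control Pulldown (1.29, SE 0.39, adjusted p = 0.01), and not without Control Pulldown 3 (0.91, adjusted p = 0.065) or TNIP2 Pulldown 3 (0.84, adjusted p = 0.054). CNOT6 (0.54, adjusted p = 0.022) lost its call without Control Pulldown 1, Control Pulldown 2, TNIP2 Pulldown 1 or TNIP2 Pulldown 2 (0.35 to 0.53, adjusted p = 0.059 to 0.11). CNOT10 (-0.71, adjusted p = 0.032) lost it without any 1 of the Control Pulldown libraries, TNIP2 Pulldown 1 or TNIP2 Pulldown 2 (-0.47 to -0.74, adjusted p = 0.055 to 0.15). UPF3A (-0.47, adjusted p = 0.095) was called with a shared replicate block (adjusted p = 0.046) and without TNIP2 Pulldown 2 (-0.70, adjusted p = 0.02). Without TNIP2 Pulldown 3, SMG5 (-0.69), EDC3 (-0.71), EXOSC5 (-0.57) and CNOT8 (0.55) were called as well. EXOSC8 was called without TNIP2 Input 3 (0.30, adjusted p = 0.044) or TNIP2 Pulldown 1 (0.38, adjusted p = 0.041), and XRN2 without TNIP2 Input 3 (0.28, adjusted p = 0.049). Without both TNIP2 libraries numbered 3 there were 17 higher and 14 lower. After centring on ribosomal protein genes, 9 were higher and 12 lower, ending the calls of UPF2 (0.32), DIS3L (0.18), CNOT3 (0.96), XRN1 (0.25) and CNOT6 (0.21) and adding UPF3A (-0.81) and CNOT4 (-0.54), with 2966 higher and 5340 lower over all genes and their median at -0.30. Quantile normalization ended the calls of XRN1 (0.25, adjusted p = 0.14), DCP2 (0.49, adjusted p = 0.16) and CNOT6 (0.17, adjusted p = 0.39) and called SMG5 (-0.95) and CNOT1 (-0.64, adjusted p = 0.0046) lower.

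The difference of enrichments, the Pulldown over Input change of the TNIP2 fragment minus that of the tag alone, tests directly whether the constructs differed. It was called higher for 12 of the 39 genes and lower for 9, which is 53.8% of the list beside 42.8% of all genes (22.6% higher and 20.2% lower). The median was 0.10 for the list and 0.02 for all genes. The strongest values were UPF3B at -2.28 (SE 0.31, adjusted p = 5.8e-05), LSM1 at -2.20 (SE 0.32, adjusted p = 8.2e-05), EXOSC6 at 1.83 (SE 0.27, adjusted p = 1.2e-04), EXOSC4 at -1.82 (SE 0.37, adjusted p = 0.0014) and EXOSC10 at 1.52 (SE 0.20, adjusted p = 4.8e-05). In this comparison 4 exosome core genes were higher and 4 lower, whereas 2 of the 9 CCR4-NOT genes were called, both lower (CNOT2 at -0.58 and CNOT7 at -0.86).

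Calls near the threshold depended on single libraries here. EXOSC8 (0.51, adjusted p = 0.048) lost its call without any 1 of 9 libraries (adjusted p = 0.074 to 0.12), the exceptions being TNIP2 Input 3, TNIP2 Pulldown 1 and TNIP2 Pulldown 3, and with a shared replicate block (adjusted p = 0.056), which called UPF2 instead (0.55, adjusted p = 0.048). DIS3 (-0.79, adjusted p = 0.043) lost it without any Control library, TNIP2 Input 3, TNIP2 Pulldown 1 or TNIP2 Pulldown 2 (-0.54 to -0.86, adjusted p = 0.052 to 0.10). CNOT2 lost it without any Control library, TNIP2 Input 1, TNIP2 Input 3 or TNIP2 Pulldown 2 (-0.42 to -0.64, adjusted p = 0.05 to 0.089). DCP2 (1.39, adjusted p = 0.024) lost it without Control Pulldown 1 (1.33, adjusted p = 0.052), TNIP2 Input 3 (1.24, adjusted p = 0.05), TNIP2 Pulldown 1 (1.04, adjusted p = 0.061) or TNIP2 Pulldown 2 (1.21, adjusted p = 0.063). With the library number as a block within each construct, CNOT6 (0.45, adjusted p = 0.046), UPF2 (0.55, adjusted p = 0.023), CNOT10 (-0.75, adjusted p = 0.0064), EDC3 (-0.90, adjusted p = 0.041) and SMG5 (-0.53, adjusted p = 0.022) were called in addition, giving 14 higher and 12 lower. UPF2 was also called without Control Pulldown 3 (0.66), TNIP2 Input 3 (0.69) or TNIP2 Pulldown 1 (0.66). EDC3 was called without Control Pulldown 3 (-1.09), CNOT10 without TNIP2 Input 2 (-0.98) and XRN2 without TNIP2 Input 3 (0.54). Without TNIP2 Pulldown 3 the additional calls were SMG5 (-0.79), EDC3 (-1.21), EXOSC5 (-0.58), CNOT10 (-0.95), CNOT8 (0.67) and CNOT6 (0.68). Without both TNIP2 libraries numbered 3 there were 16 higher and 13 lower, and the median of the list was -0.02.

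Across the 3 comparisons that involve TNIP2 Pulldown, which share those libraries, 11 genes were called higher in each: EXOSC6, EXOSC7, EXOSC9, EXOSC10, DIS3L, PAN2, DCP1A, DCP1B, DCP2, XRN1 and UPF1. A further 9 were lower in each: EXOSC1, EXOSC2, EXOSC3, EXOSC4, DIS3, CNOT2, CNOT7, LSM1 and UPF3B. Another 11 were called in none: EXOSC5, DIS3L2, CNOT1, CNOT4, CNOT6L, CNOT8, PAN3, EDC4, XRN2, UPF3A and SMG6. As shares of the 39 genes these are 28.2%, 23.1% and 28.2%. Over all genes tested, 22.1% were higher in each, 2927 of 14627 were lower in each and 35.4% were called in none. The higher group depended on the scaling. With libraries centred on ribosomal protein genes, EXOSC6 and EXOSC10 were the only 2 of its 11 genes still called in the difference of enrichments. DCP2 was then at 0.81 (adjusted p = 0.058), DCP1B at 0.73 (adjusted p = 0.21), DCP1A at 0.21 (adjusted p = 0.50) and XRN1 at 0.17 (adjusted p = 0.60), and the other 5 were between 0.08 (DIS3L, adjusted p = 0.80) and 0.79 (UPF1, adjusted p = 0.099). Quantile normalization ended that call for EXOSC9 (0.74, adjusted p = 0.16), DCP2 (0.65, adjusted p = 0.23) and XRN1 (0.41, adjusted p = 0.12). None of the 9 lower genes lost a call in these comparisons under either scaling.

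The ratio of related genes within a library does not depend on how the library was scaled. There were 6 pairs of related genes, each compared between TNIP2 Pulldown and TNIP2 Input and between TNIP2 Pulldown and Control Pulldown. The 12 exact permutation tests were two-sided and cannot go below 0.10 with 3 against 3. Of the 6 pairs, 4 had non-overlapping ratios in both comparisons. For single genes, libraries did not overlap for 57.5% and 61.0% of all genes tested in these comparisons. The share among other gene pairs was not computed. The log2 ratio of CNOT7 over CNOT8 was 0.21, -0.19 and 0.53 in TNIP2 Pulldown, against 1.49, 1.24 and 1.59 in TNIP2 Input and 1.28, 1.49 and 1.37 in Control Pulldown. The excess of CNOT7 seen in every other library was thus much smaller in TNIP2 Pulldown, by 1.25 in log2 against TNIP2 Input (-1.25, exact p = 0.10, adjusted p = 0.13). For UPF3A over UPF3B the ratios were 0.42, 0.42 and -0.20 in TNIP2 Pulldown, -1.41, -1.02 and -1.12 in TNIP2 Input, and Control Pulldown held -1.38, -1.16 and -1.41. UPF3B had the higher normalized count in both of those groups, and in TNIP2 Pulldown only in library 3. The difference was 1.39 against TNIP2 Input and 1.53 against Control Pulldown (exact p = 0.10 and adjusted p = 0.13 for both).

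DIS3 over DIS3L fell from 2.41 ± 0.41 (SD, n = 3) in TNIP2 Input and 2.31 ± 0.13 in Control Pulldown to 1.04 ± 0.39 in TNIP2 Pulldown, without overlap (exact p = 0.10, adjusted p = 0.13). XRN1 over XRN2 was -0.53 ± 0.19 in TNIP2 Pulldown, -1.16 ± 0.40 in TNIP2 Input and -0.84 ± 0.05 in Control Pulldown, again without overlap (exact p = 0.10, adjusted p = 0.13). CNOT6 over CNOT6L was 1.59 ± 0.32, 0.81 ± 0.19 and 0.97 ± 0.29 in the same groups, overlapping with Control Pulldown (exact p = 0.20, adjusted p = 0.24) but not with TNIP2 Input (exact p = 0.10, adjusted p = 0.13). DCP1A over DCP1B, at 1.84 ± 0.36, 2.10 ± 0.20 and 2.57 ± 0.78, overlapped with both (exact p = 0.40 and 0.30). This was the pair whose members were both called higher.

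**Figure D4:**
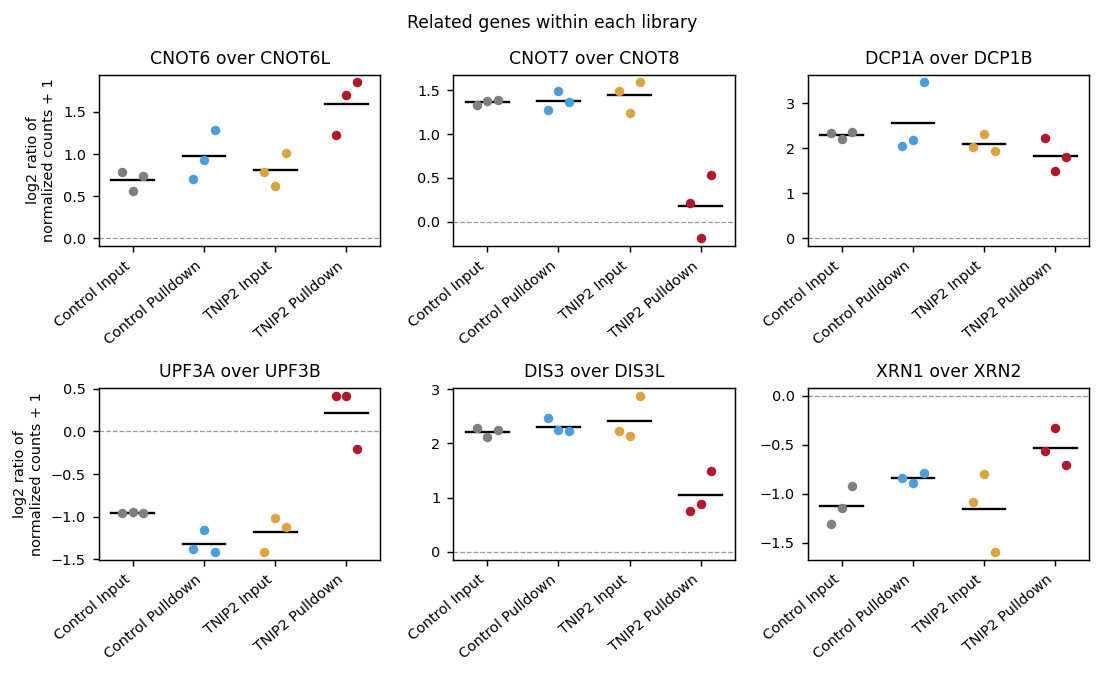
Log2 ratio of the normalized counts + 1 of 6 pairs of related genes in each library (points), with the group mean (bar), 3 libraries per group; the dashed line marks equal counts. The TNIP2 Pulldown points of CNOT7 over CNOT8 and of DIS3 over DIS3L are below, and those of UPF3A over UPF3B above, the points of all 3 other groups.

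Other genes of the decay pathways were counted beside 29.8% of all genes called higher and 28.3% lower over TNIP2 Input. Of 12 exosome cofactors, which feed RNA to the exosome, 5 were higher and 6 lower in TNIP2 Pulldown than in TNIP2 Input (median -0.33). Of 15 other deadenylation factors 6 were higher and 5 lower (median 0.04), of 14 other decapping factors 6 and 5 (0.33), of 14 other nonsense-mediated decay factors 6 and 3 (-0.03), and of 6 genes of RNA uridylation and ribosome rescue 3 and 1 (0.42). By limma, 0 genes of these 5 lists were called in Control Pulldown against Control Input, where 0 had an unadjusted p under 0.05. In TNIP2 Input against Control Input 0 were called, and 1 had such a p. Over all genes tested, 342 and 104 of 14627 had such a p in these comparisons, both in the fit on all 12 libraries. Against Control Pulldown, where 30.6% and 28.7% of all genes were called, the counts were 5 and 5, 6 and 4, 7 and 5, 6 and 2, and 3 and 1 in the same order. Nothing particular to these lists was tested.

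The genes of smallest p in these lists included strong differences. LSM3 and LSM2, which encode subunits of the same ring as LSM1, were on opposite sides: LSM3 rose from 1389 ± 307 (SD, n = 3) normalized counts in TNIP2 Input to 6213 ± 945 in TNIP2 Pulldown (2.17, SE 0.17, adjusted p = 9.7e-08). LSM2 fell from 689 ± 67.9 to 182 ± 20.4 (-1.91, SE 0.17, adjusted p = 2.9e-07), next to LSM1 at -2.05. TNRC6C, a GW protein that recruits deadenylases to microRNA targets, rose from 239 ± 64.8 to 1022 ± 63.0 (2.13, adjusted p = 6.4e-07). ANGEL1, a relative of CNOT6, was at -1.21 (adjusted p = 2.1e-05). Among exosome cofactors, WDR61 of the SKI complex fell from 699 ± 21.1 to 154 ± 30.4 (-2.19, adjusted p = 6.1e-08), and RBM7 of the nuclear exosome targeting complex from 295 ± 25.6 to 77.3 ± 3.06 (-1.92, adjusted p = 2.2e-07). The exon junction complex genes RBM8A (1.69, adjusted p = 1.1e-07) and EIF4A3 (1.33, adjusted p = 8.8e-06) were higher, as was MAGOH of the same complex (2.10, adjusted p = 2.8e-05). CASC3, also of that complex, was lower (-0.59, adjusted p = 0.0018), and MAGOHB was not called (-0.23, adjusted p = 0.32). MAGOH, CASC3 and MAGOHB were named after their values were seen. ZNF598, which senses collided ribosomes, and PELO, which splits stalled ones, were at 1.28 (adjusted p = 1.6e-05) and 1.27 (adjusted p = 1.8e-05).

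Transcript length differed with the call. The exonic length inferred from the deposited values had a median of 5377 bases for the 15 genes called higher in TNIP2 Pulldown over TNIP2 Input, 2937 for the 12 called lower and 4906 for the 12 not called. Over all genes tested the medians were 3856, 2623 and 3309 bases. Across the 39 genes, length and log2 fold change had a Pearson r of 0.32 and a Spearman rho of 0.27, and across all 14627 genes 0.21 and 0.22; these are descriptions across genes of the same libraries, which are not independent replicates. For the tag alone the values were 0.44 and 0.55 across the 39 genes and 0.20 and 0.19 across all. The part of length in the calls was not tested. Against log2 FPKM in Control Input, the change of TNIP2 Pulldown over TNIP2 Input had a Pearson r of -0.16 across the 39 genes and -0.14 across all. For the tag alone it was -0.38 across the 39 genes and -0.03 across all.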

How the data were processed

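RNA sequencing values of 12 libraries were used as deposited. The authors' deposited normalized counts were treated here as a score because its whole numbers are already scaled between libraries (median-of-ratios factors of 1.002 to 1.006). FPKM values were also deposited by the authors. Per the submitters' processing notes, tools included TopHat2 2.0.14 and DESeq2 1.6.3, with genome build hg19. Counter, strand setting and annotation: not given in the sources used here. Rounding by the authors is inferred from the values. Table columns were matched by their letters, the TNIP2 fragment's by elimination. Low FPKM values were whole multiples of a step in each library (1348 to 3072 values per library, all whole within 0.1 reads; 12 of 12 simulated steps found), which gave reads, depth and exonic length; 1 read was worth 0.510 to 2.86 normalized counts, so Control Pulldown is the least precise.

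Values were log2(normalized count + 1), which understates changes of low genes. Genes with at least 10 in at least 3 libraries were fitted in limma 3.58.1 (R 4.3.3; lmFit, eBayes with trend), all 12 libraries with a mean per group, two-sided, with Benjamini-Hochberg adjustment over 14627 genes; 4492 genes at 0 in every library were left out. A fold is 2 to the power of the fitted difference. On simulated data for TNIP2 Pulldown over TNIP2 Input (14511 genes), 83 of 97 changes of 1 and 97 of 99 changes of 2 on the log2 scale were recovered, with 2.17% false calls. The simulation changed only those few genes, evenly up and down, with the same setting of spread for every gene and no outlying library. In the data 58.1% of all genes were called. The simulated rate therefore does not give the rate of false calls in the data. Pairs were tested by exact permutation (scipy 1.17.1). Deviations from group means correlated between TNIP2 Input and Pulldown of the same number (r = 0.37, 0.46 and 0.50). With another number r was at most 0.27, 0.11 and -0.27, so that check pairs the TNIP2 libraries, number 1 least clearly. For the Control groups r was 0.07 to 0.08 with the same number and at most 0.03 to 0.07 with another, which shows no clear pairing. The main fit did not use the pairing, whereas the block within each construct did.

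Named were the 39 genes, with full values for up to 3 of smallest p per role and for the pairs, TNIP2, and up to 2 called genes of smallest p from each other list. The genes, lists and tests were chosen with earlier results of these data known. Alternatives were a pseudocount of 5, no filter, a minimum of 50, quantile normalization, centring on ribosomal protein genes, FPKM (pseudocount 0.1), voom on recovered reads, a replicate block, only the groups compared, and leaving out each library. Leaving out both TNIP2 libraries numbered 3, and the block within each construct, were added after seeing the data.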

Additional observations from a re-analysis of the deposited data

Results flagged for a closer look

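The enrichment in the Pulldown differed between the constructs for 21 of the 39 genes, by the test of the difference itself (TNIP2 fragment minus tag alone, log2, limma with Benjamini-Hochberg adjustment), beside 42.8% of all genes tested. For the exosome core the differences were -0.90 for EXOSC1 (adjusted p = 0.007), -1.03 for EXOSC2 (0.0016), -0.82 for EXOSC3 (0.016), -1.82 for EXOSC4 (0.0014), 1.83 for EXOSC6 (1.2e-04), 1.20 for EXOSC7 (0.0012), 0.51 for EXOSC8 (0.048) and 1.28 for EXOSC9 (0.018). Its nucleases differed by 1.52 for EXOSC10 (4.8e-05), -0.79 for DIS3 (0.043) and 0.67 for DIS3L (0.014). Among deadenylation genes the differences were -0.58 for CNOT2 (0.041), -0.86 for CNOT7 (0.0085) and 1.00 for PAN2 (0.0033). Decapping genes differed by 0.79 for DCP1A (0.0062), 1.31 for DCP1B (0.016), 1.39 for DCP2 (0.024) and -2.20 for LSM1 (8.2e-05), and the exonuclease XRN1 by 0.75 (0.0086). In nonsense-mediated decay the differences were 1.37 for UPF1 (4.1e-04) and -2.28 for UPF3B (5.8e-05). With groups of 3 libraries, no formal test for an outlying library was run. Leaving out 1 library at a time ended the calls of EXOSC8, DIS3, CNOT2 and DCP2 in some of the fits, as given above.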

How the results depend on the processing

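Of the 27 calls in TNIP2 Pulldown over TNIP2 Input, 16 were kept under every alternative run; against Control Pulldown 17 of 24 were kept, and for the difference of enrichments 9 of 21. Centring each library on ribosomal protein genes gave 7 genes higher and 14 lower over TNIP2 Input, 9 and 12 over Control Pulldown, and 2 and 13 in the difference of enrichments (all genes: 1490 higher and 4952 lower, beside 3301 and 2960). It reversed EXOSC8, which was at -0.08 (adjusted p = 0.77) over TNIP2 Input and -0.07 (adjusted p = 0.87) in the difference of enrichments. Leaving out 1 library gave 14 to 16 genes higher and 9 to 14 lower over TNIP2 Input, 13 to 16 and 9 to 13 over Control Pulldown, 10 to 14 and 7 to 13 for the difference, and 0 in both other comparisons. With a replicate block shared by all groups, 15 were higher and 12 lower over TNIP2 Input, and 12 and 9 in the difference; beside the changes given above, the block changed no other call. Over all genes, Control Pulldown against Control Input gave 44 lower and 4 higher in a fit on those groups alone, 29 and 2 after quantile normalization, 40 lower without both TNIP2 libraries numbered 3, 31 without TNIP2 Pulldown 1, and 12 without Control Input 1, Control Input 2 or Control Pulldown 1, beside 20. The causes were not tested. Control Pulldown, at 3591073 to 6404575 reads, limits the precision for genes such as DCP1B (25 reads) and CNOT3 (32 reads).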
